A study of Caenorhabditis elegans with 2 samples.

Results

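The superoxide dismutase genes of Caenorhabditis elegans are sod-1 to sod-5, taken here as 5 of 19973 nuclear protein-coding genes because PHA-4 is known to act on sod genes under dietary restriction. They were chosen by name and not by a rule on any measured value, but with earlier results of these data known. Binding of PHA-4 was measured by chromatin immunoprecipitation and sequencing in 2 biological replicates of whole L4 larvae aged 48 h, of strain RW12220. This strain carries a TY1, EGFP and 3xFLAG tag inserted by CRISPR at the native pha-4 locus, and the tagged protein was precipitated with an antibody to GFP, while another label lists the antibody as pha-4. Both replicates were grown from starved, synchronized L1 larvae and form a single group, with no untagged or dietary restriction group. The food given later was not stated in the sources used here. The signal comes from all tissues that contain PHA-4, so binding in few cells and weak binding in many cannot be told apart.

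No superoxide dismutase gene had a PHA-4 peak in any of the 4 thresholded lists. In the main list, made from both replicates, 0 of 5 had a peak over the gene or its start window, from 2000 bp before to 500 bp after the start, against 13.8% of all protein-coding genes. The interval for 0 of 5 reaches 43.4% (95% Wilson), so 5 genes alone do not separate the family from that background. The counts were also 0 of 5 in the conservative list (background 7.89%), in the list of replicate 1 (10.7%) and in that of replicate 2 (8.16%). The narrower rule of a main-list summit inside the start window was met by 0 of 5, as the count above fixes, against 9.55% of genes. Of the 5, sod-1 came closest to the threshold in the pooled list and in replicate 1, but not in replicate 2 or between the replicates, and sod-3 had no peak at any rank in any list.

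The genes lie on 4 chromosomes of ce11, with positions from the Ensembl annotation. sod-1 (WBGene00004930, chromosome II, 6972706 to 6973887, minus strand) overlaps the noncoding gene C15F1.13 at its end, and its neighbours are art-1 and C15F1.8. sod-2 (WBGene00004931, chromosome I, 8434550 to 8435807, plus strand) lies inside dpt-1, which is read from the opposite strand, so a peak there cannot be given to either gene alone. sod-3 (WBGene00004932, chromosome X, 17092753 to 17094306, plus strand) starts inside C08A9.3, also on the opposite strand, and overlaps the end of lido-1 by 24 bp. sod-4 (WBGene00004933, chromosome III, 9496884 to 9500375, minus strand) overlaps the end of ctr-9 and has 4 annotated transcripts with 3 starts. sod-5 (WBGene00007036, chromosome II, 4417633 to 4419130, plus strand) overlaps no other gene, with ZK430.5 and bpnt-1 more than 1000 bp away on either side.

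Superoxide dismutases turn superoxide, a by-product of respiration, into oxygen and hydrogen peroxide, which catalases, peroxiredoxins and glutathione peroxidases then remove. sod-1 encodes the main copper/zinc enzyme of the cytosol and sod-5 a minor cytosolic one, while sod-4 encodes an extracellular copper/zinc enzyme made in secreted and membrane-bound forms. sod-2 and sod-3 encode the manganese enzymes of mitochondria, sod-2 the main one and sod-3 one that is induced by the forkhead factor DAF-16 when insulin signalling is low. PHA-4 is a forkhead factor of the FoxA family. It specifies the pharynx in the embryo and is required in adults for the longer life of worms under dietary restriction.

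The authors' ranked lists also hold peaks below the threshold, here called candidates. In the pooled one, no candidate summit lay in the start window of sod-2, sod-3 or sod-5, as for 43.9% of all genes. Replicate 2's own list differed. It had start window summits at sod-2 and sod-5 and none at sod-3 or sod-4, where 45.7% of all genes had none. Short words were searched on both strands of the 300 bases from 250 before to 50 after each start. For forkhead factors these were the common core TGTTTAC, its variant with a late G, which reads TGTTTGC, and the forms of both with A in place of the early G, which read TATTTAC for the core and TATTTGC for the variant. For GATA factors the word was TGATAAG. The words differ from each other in letters and none overlapped another at the sites given here. TGTTTAC was found in the promoters of sod-3, sod-5 and sod-2 and in 4.77% of all promoters, and any of the 4 forkhead words was found in 22.6% of all promoters. The promoters of sod-1 and sod-4 held none of the 4, but their wider start windows did hold forkhead words. So did the start windows of the other members and of 81.8% of all genes. The 250 bases before the starts of sod-3 (ce11, chrX:17092503-17092752, plus strand) and sod-5 (chrII:4417383-4417632, plus strand) are shown because they hold TGTTTAC and had no pooled candidate summit in the start window. The 201 bases around the sod-1 summit at -323 (chrII:6974110-6974310, minus strand) are shown because this candidate came closest to the threshold in the pooled list, and those around the sod-4 summit at -1369 (chrIII:9501644-9501844, minus strand) because a forkhead word lies 12 bp from that summit. Each reads 5′ to 3′ in the direction of its gene, from the RefSeq copy of the assembly, with words that were found in capitals.
sod-3, before the start: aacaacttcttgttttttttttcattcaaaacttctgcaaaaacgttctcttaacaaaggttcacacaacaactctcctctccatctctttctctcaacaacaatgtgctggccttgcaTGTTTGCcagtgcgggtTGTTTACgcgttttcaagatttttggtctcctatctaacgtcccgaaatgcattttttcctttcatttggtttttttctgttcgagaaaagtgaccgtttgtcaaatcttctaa
sod-5, before the start: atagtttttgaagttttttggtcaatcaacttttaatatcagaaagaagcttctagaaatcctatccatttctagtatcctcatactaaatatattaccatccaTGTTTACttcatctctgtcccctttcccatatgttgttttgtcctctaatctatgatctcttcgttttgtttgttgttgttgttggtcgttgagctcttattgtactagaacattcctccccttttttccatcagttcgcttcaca
sod-1, candidate at -323: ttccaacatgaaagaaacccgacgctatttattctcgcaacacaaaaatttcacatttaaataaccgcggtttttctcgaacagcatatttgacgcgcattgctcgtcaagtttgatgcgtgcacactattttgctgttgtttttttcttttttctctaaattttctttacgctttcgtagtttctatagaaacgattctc
sod-4, candidate at -1369: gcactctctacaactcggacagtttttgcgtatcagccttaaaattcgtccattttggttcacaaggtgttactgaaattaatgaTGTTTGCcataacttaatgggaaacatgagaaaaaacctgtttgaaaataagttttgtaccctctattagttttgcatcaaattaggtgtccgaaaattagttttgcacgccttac

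In sod-3 the word TGTTTGC lay from -131 to -125 and TGTTTAC from -114 to -108 relative to the start. In sod-5 TGTTTAC lay from -146 to -140. The sod-1 window held none of the 5 words, and windows of this size held a forkhead word at 15.6% of main-list summits and at 12.6% of all pooled candidates. Its GC content was 35.8%, against 43.8% ± 8.56 (SD over 2920 peaks) at main-list summits and 33.8% ± 8.09 (SD over 81354 peaks) at all pooled candidates. Among the 14 pooled candidates at the 5 genes, 4 had a forkhead word within 100 bp of the summit: 1 at sod-1, at +358, and 3 at sod-4, at -670, -1369 and +148. The sod-2 promoter, whose sequence is not shown, held TGTTTAC at -143 and -106, TGTTTGC at -172 and TATTTGC at -9, the most of the 5 promoters. A match is only a description of the letters there.

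The ranked lists give each candidate peak its signal value, the caller's own measure whose scale differs by list, and the −log10 of its irreproducible discovery rate (IDR). The IDR is low where a peak ranks high in both of the peak sets compared, and the deposited threshold of 0.01 is a −log10 of 2. In the pooled list, the one from which the main list comes, with 81354 nuclear candidates covering 25.3% of the genome, 3 of 5 superoxide dismutase genes had a candidate (sod-1, sod-4 and sod-5), against 61.1% of all genes. The same 3 genes had one in the list that ranked the replicates against each other (background 58.0%) and in that of replicate 1 (65.7%). In the list of replicate 2, 4 of 5 had one, with sod-2 added (64.5%). The 95% Wilson intervals (23.1% to 88.2% for 3 of 5, 37.6% to 96.4% for 4 of 5) hold each background. With 5 genes they are wide and are a description only. A candidate summit inside the start window was present for 2 of 5 in the pooled list, sod-1 and sod-4, against 56.1% of genes.

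**Figure D1:**
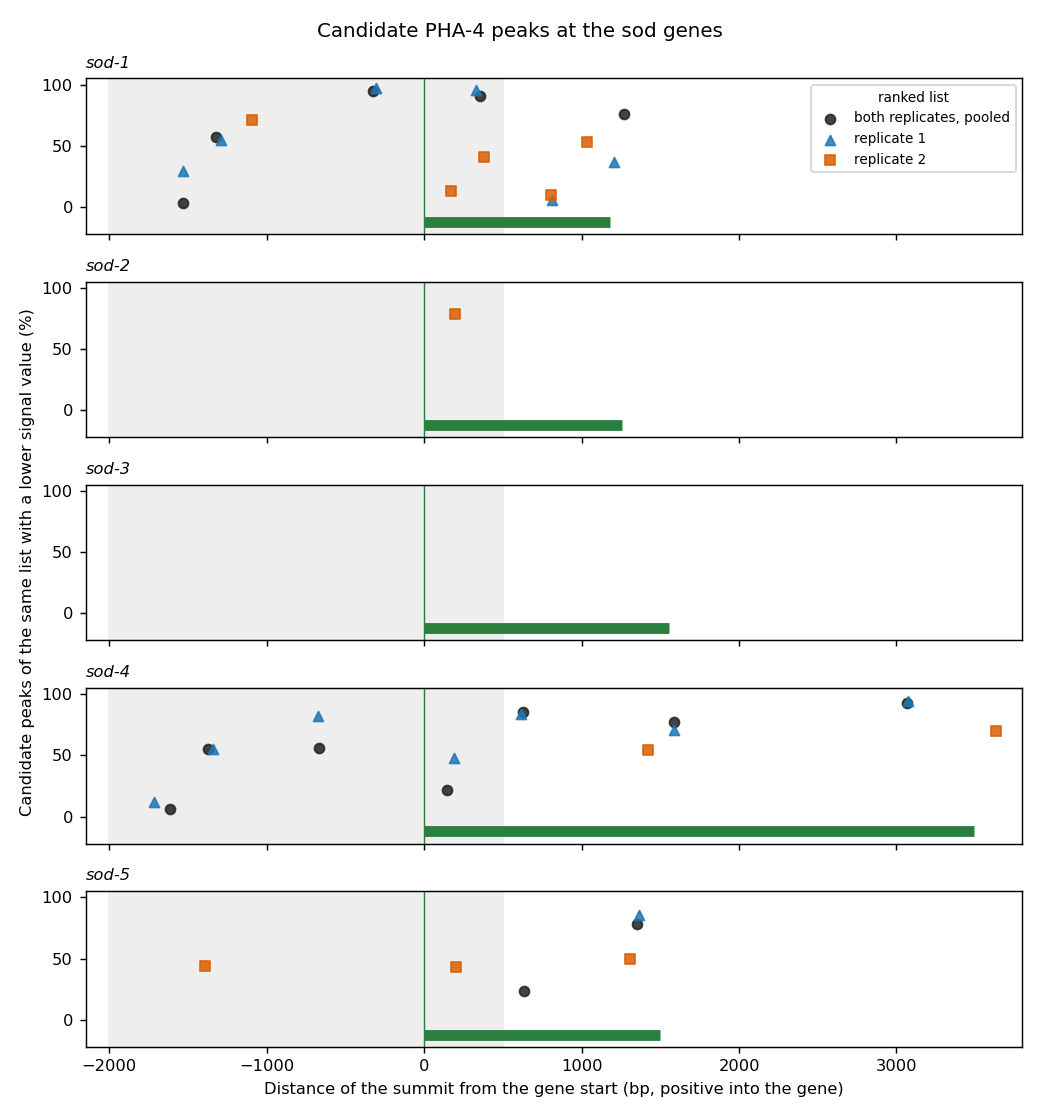
Candidate peaks at each sod gene. The x axis gives the distance of the summit from the gene start in bp, the y axis the percentage of nuclear candidates of the same ranked list with a lower signal value. Black circles are the pooled list, blue triangles replicate 1, orange squares replicate 2; grey marks the start window and the green bar the gene. sod-1 and sod-4 carry most candidates, sod-2 has a single one from replicate 2 and sod-3 has none.

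sod-1, the main cytosolic enzyme, had 5 candidates in the pooled list. The strongest had its summit 323 bp before the start, in intergenic sequence (chromosome II, 6974040 to 6974379, summit 6974210), with a signal value of 63.2. Of the pooled candidates 94.9% were weaker, as were 8.32% of the main-list peaks. The −log10 IDR was 1.80, an IDR of 0.0159, which is on the weaker side of 0.01. The signal values of the 2 peak sets compared there were 31.9 and 34.0, so those sets gave it nearly the same value. Those sets matched neither replicate's own peaks, so the values do not compare the replicates. For comparison, the strongest candidate summit in the start window was weaker than that of sod-1 in 86.9% of all genes. This counts as weaker the 43.9% of genes with none.

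The replicates' own lists differed at this site. In replicate 1's own list the candidate had a signal value of 55.0, its summit at -304 and a −log10 IDR of 1.68. Replicate 2's own list had no candidate there, and its nearest summits before and after lay at -1090, with a signal value of 16.2, and at +169, with 4.74. Where the replicates were ranked against each other, the site had 55.0 in the first peak set and 8.97 in the second, a ratio of 6.13, and the −log10 IDR was 0.162. Of all nuclear peaks of that list 8.86% had a higher ratio, and the median ratio was 2.05. The peak of the second set had its summit at -403. The first value is that of replicate 1's own list, while the second is not in replicate 2's own list. The first set had the higher value at 80.7% of the peaks of that list.

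The other sod-1 candidates were weaker in signal. The candidate at +358, in an intron, had a pooled signal value of 50.6 and a −log10 IDR of 0.404. The one at +1270, past the end of the gene, had 35.7 and 1.49, the second highest −log10 IDR among the pooled candidates of the 5 genes. Between the replicates it had the lowest −log10 IDR of that list, 0.0655. Its summit lay in the 470 bp between sod-1 and art-1, before the start of art-1 and nearer to it than to the start of sod-1. This candidate therefore cannot be given to sod-1 alone. The remaining 2, at -1322 and -1529, had signal values of 26.1 and 3.73, and the second of these lay at the lowest −log10 IDR of the pooled list.

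**Figure D2:**
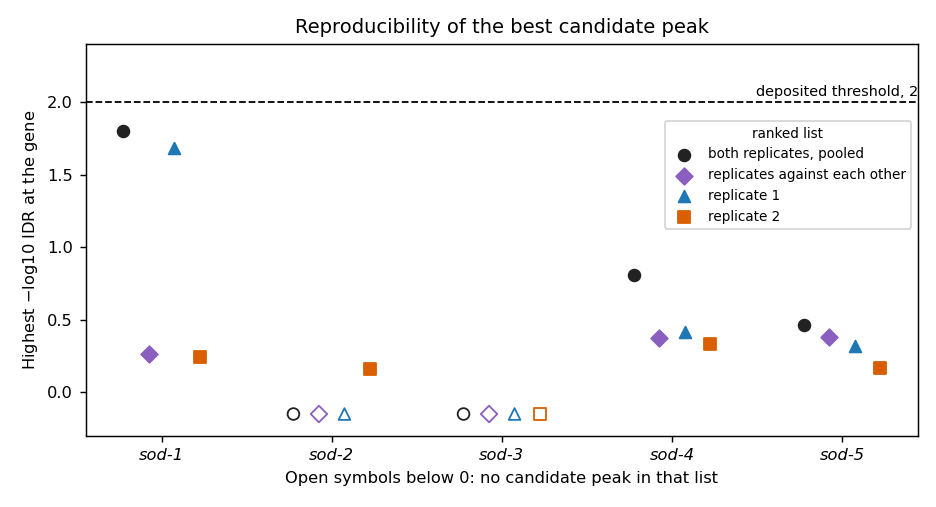
Highest −log10 IDR among the candidates at each sod gene (x axis), in the 4 ranked lists; the dashed line is the deposited threshold of 2. The values at sod-1 were 1.80 in the pooled list and 1.68 in replicate 1, but 0.263 between the replicates and 0.242 in replicate 2; open symbols mark lists with no candidate.

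sod-4, the extracellular enzyme, had 7 pooled candidates, the most of the 5 genes, over the longest region (5492 bp). The strongest, with a signal value of 55.1, lay at +3069 in a coding exon near the far end of the gene, and its −log10 IDR was 0.167, with 44.9 and 12.8 in the 2 peak sets. The candidate with the highest −log10 IDR, 0.806, lay at +629 in an intron, with a signal value of 43.8. In the start window the strongest was at -670, with 25.6, and 51.9% of genes had a weaker one or none. Most of these were the 43.9% of genes with none, and 25.6 lay below the median of 42.1 over genes with one. The candidate at -1369 had a signal value of 25.4 and a −log10 IDR of 0.327. Between the replicates it had the lowest −log10 IDR of that list, 0.0655. That at +148 had a signal value of 12.3 and the lowest −log10 IDR of the pooled list, 0.0798. Where the replicates were ranked against each other, the candidate at +3069 had 44.8 in the first peak set and 6.65 in the second, a ratio of 6.74, and that at -670 had 30.5 and 4.21, a ratio of 7.25. These second-set values are not in replicate 2's own list. Replicate 2's own list had no summit in the start window of sod-4. It held 2 candidates, at +1425 (12.5) and at +3635 (15.8), and the one at +3635 had its summit beyond the gene end, in an intron of ctr-9.

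sod-5, the minor cytosolic enzyme, had 2 pooled candidates, both inside the gene and outside the start window. The one at +1353, in a coding exon, had a signal value of 37.3 and a −log10 IDR of 0.463. It was found in all 4 ranked lists. Its summit lay at +1366 with a signal value of 32.9 in replicate 1 and at +1310 with 11.5 in replicate 2. In the pooled list and in replicate 1 (1257 bp) the summit was nearer to the start of bpnt-1 than to that of sod-5. In replicate 2 it was about as far from both. The one at +633, in an intron, had 13.1 and lay at the lowest −log10 IDR of the list. Replicate 2 alone had candidates in the start window, at -1394 (10.5), in a coding exon of ZK430.5, and at +204 (10.4).

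The mitochondrial enzymes had the fewest candidates. sod-2 had a single one, in replicate 2 alone, with a signal value of 18.8, its summit at +198 in a coding exon of sod-2 that is also an intron of dpt-1, and a −log10 IDR of 0.159. Of replicate 2's nuclear candidates 78.7% were weaker. In the other 3 ranked lists the nearest candidate to its start was 4852 to 5751 bp away. sod-3 had none in any of the 4 ranked lists, and the nearest summit to its start lay 11640 bp before it in the pooled list, with a signal value of 8.06. Only 12.9% of genes had a start farther from a pooled candidate, against a median distance of 638 bp. In the lists of replicate 1 and replicate 2 the nearest summit lay 12421 and 12412 bp away, and 9.08% and 7.64% of genes were farther.

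**Figure D3:**
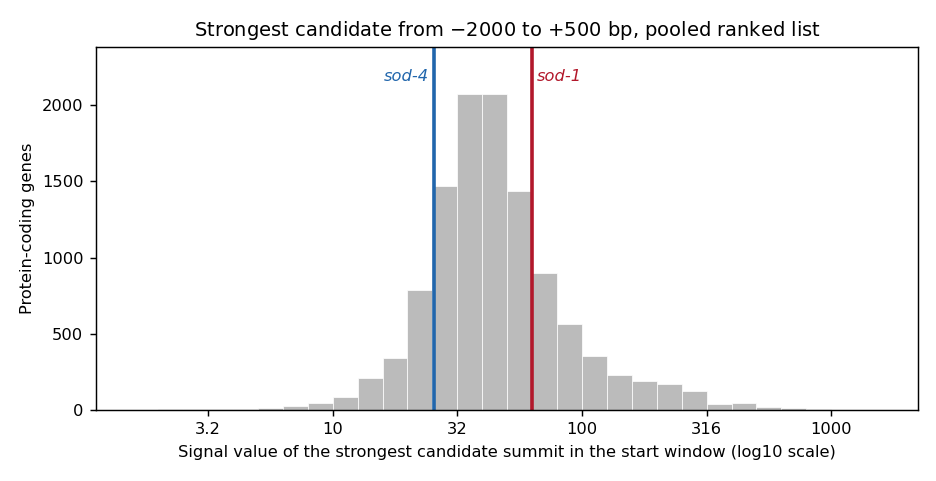
Signal value of the strongest pooled candidate summit in the start window (x axis, log10 scale), over the protein-coding genes with one (y axis, number of genes). sod-1 (63.2) lies right of the median of 42.1 and sod-4 (25.6) left of it; sod-2, sod-3 and sod-5 have no summit there and are not drawn, like 43.9% of all genes.

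Between the replicates, the 13 candidates at superoxide dismutase genes had a median ratio of 2.77 of the first to the second peak set, against 2.05 over all 72493 nuclear peaks and 1.85 over the 1577 with an IDR of at most 0.01. The first set was higher at 11 of the 13. The 2 others were the candidates at -1529 of sod-1 (0.799) and at +633 of sod-5 (0.869). The candidates of 1 gene share a locus and are not replicates, and 2 of the sod-1 candidates were paired with the same peak of the second set, at -1090, and 2 of the sod-4 candidates with a peak at -1318. The scale of each list is its own, so a ratio other than 1 is not a difference in binding.

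**Figure D4:**
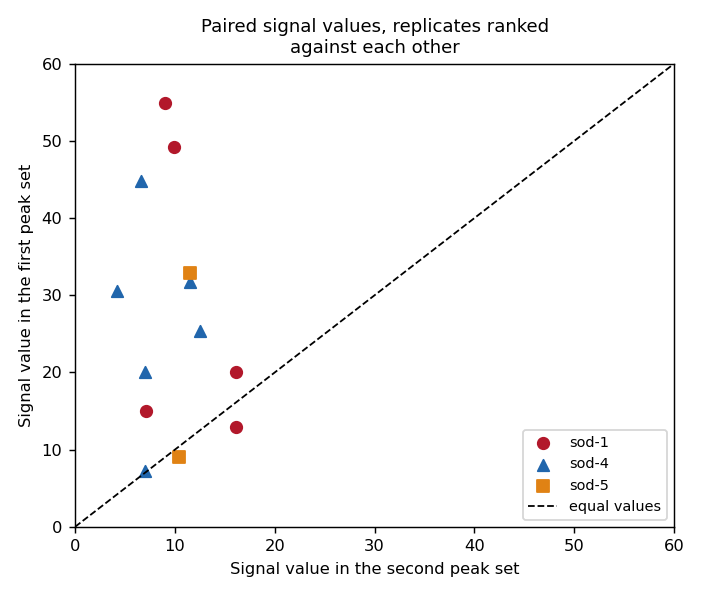
Signal values of the 13 candidates in the 2 peak sets ranked against each other, the second set on the x axis and the first on the y axis; the dashed line marks equal values. The sod-1 candidate at -323 is the uppermost point, at 8.97 and 55.0, and 11 of 13 points lie above the line.

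Thresholded peaks lay some way from all 5 genes. The main-list summit nearest to the sod-1 start was 5367 bp downstream, beyond the gene end, over the snRNA gene sup-39, with a signal value of 144.1. Those nearest to sod-2 and sod-4 lay 7640 and 8831 bp before the start, the second in an intron of vha-14, a subunit gene of the vacuolar proton pump. For sod-5 and sod-3 the distances were 18424 and 28720 bp, in introns of mlt-7 and C30G4.4. The median over all genes was 17395 bp, so 3 of the 5 starts were nearer than the median and 2 farther.

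The other antioxidant genes were counted by the same rule. Of 30 genes for catalases, peroxiredoxins, glutathione peroxidases, thioredoxins, glutathione synthesis and related proteins, 3 (10%, 95% Wilson interval 3.46 to 25.6) had a main-list peak, and the interval holds the background of 13.8%. gss-1, which encodes glutathione synthetase, had a signal value of 87.3 with its summit at -421, and the gene also had a peak in the list of replicate 1. gpx-4, of the glutathione peroxidase family, had 86.0 at -1438 and no peak in the list of either replicate. prdx-2, a peroxiredoxin, had 91.9 at +1557, a summit past the end of the gene over the noncoding gene F09E5.22, and it also had a peak in the list of replicate 2. In the conservative list the count was 0 of 30, against 7.89% of all genes, and its interval, up to 11.4%, holds that background. The catalases ctl-1, ctl-2 and ctl-3 had no main-list peak, and ctl-1, like sod-2 and sod-3, had no pooled candidate.

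At an IDR of at most 0.05 in the pooled list, sod-1 was the only superoxide dismutase gene with a peak (1 of 5), against 20.7% of all genes, and 5 of the 30 antioxidant genes had one. Between the replicates at the same limit it was 0 of 5, against 13.2% of genes, and 1 of the 30. sod-1 thus had a peak at the looser limit in the pooled list and none between the replicates.

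Most of the listed regulators of dietary restriction and stress had a peak. Of 16, 12 (75.0%, 95% Wilson interval 50.5 to 89.8) had a main-list peak over the gene or start window, against 13.8% of all genes, and 9 had one in the conservative list, against 7.89%. Their regions were longer, with a median of 9289 bp against 3498 bp for the sod genes and 4027 bp for all genes. With the fixed start window, 5 of 16 had a summit, against 9.55% of genes: drr-2 (signal value 581.2), wwp-1 (418.5), smk-1 (278.2), hif-1 (192.4) and hlh-30, whose strongest peak (212.4) lay farther in, at +6621. smk-1 encodes a cofactor of PHA-4 in longevity, and it had a peak in each of the 4 thresholded lists, at -1287 in the main one. The forkhead gene daf-16 had 3 main-list peaks, the strongest 186.9 in an intron, and pha-4 itself had 2, with 67.1 the stronger. hsf-1, nhr-62, sir-2.1 and age-1 had none. The regulator list was chosen with earlier results of these data known, so these shares are a description only. No difference from all genes or between these gene lists was tested. The Wilson intervals treat genes as independent draws, so whether one holds a background is not a test result.

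**Figure D5:**
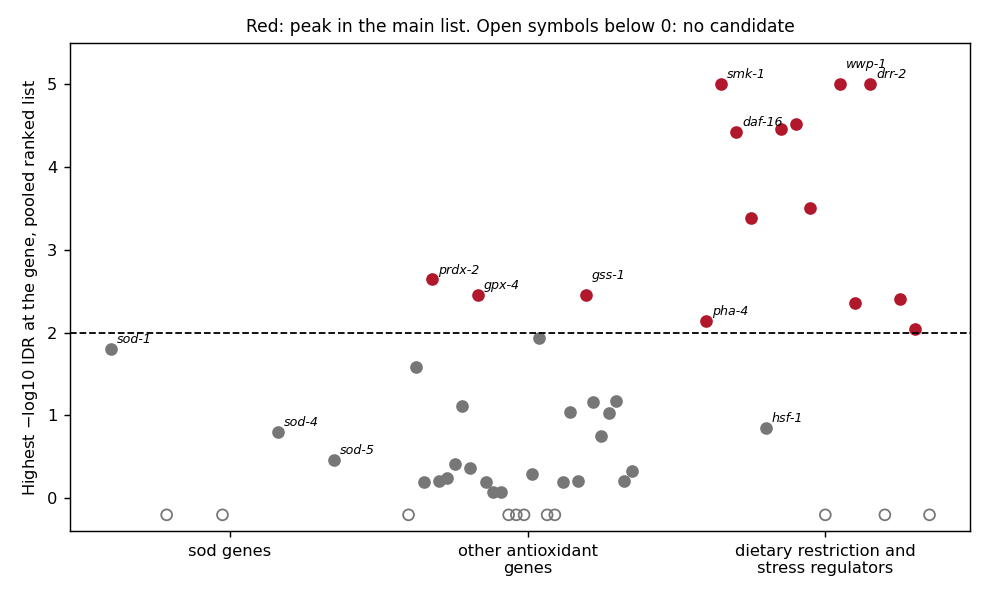
Highest −log10 IDR in the pooled list for each gene of the 3 lists (columns; genes in list order), with the deposited threshold of 2 dashed; red marks genes with a main-list peak, open symbols below 0 genes without a candidate, and 5 is the cap. The highest values are 1.80 for the sod genes, 2.64 for the other antioxidant genes and 5 for the regulators.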

How the data were processed

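The authors deposited, per the notes with the files, peak lists on ce11 made from filtered alignments and a control. The aligner and the peak caller are not given in the sources used here. Chromatin was sheared to 200 to 800 bp, per the labels. The deposited signal value is the caller's, and the ranked lists add a deposited −log10 IDR, capped at 5, and as deposited scores the signal values of the peak sets compared. Each thresholded list was found, peak by peak, in 1 ranked list (the main list in the pooled one), with a −log10 IDR of at least 2. In the list that ranks the replicates, the first peak set matched replicate 1's own peaks in 89.3% of rows and the second matched replicate 2's in 57.3%. In the pooled list both matched neither replicate, and it is taken here as the list from the pooled reads. Read numbers, and so depth, are unknown, and intervals cover counting over genes only.

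Genes came from Ensembl release 115 and sequence from RefSeq, both of the ce11 assembly (0 peaks lay beyond chromosome ends). A gene was counted when a peak overlapped it or its start window by at least 1 base. Percentages of weaker peaks and genes, distances and word matches were computed across all genes with Python 3.11.15, pandas 2.3.3 and SciPy 1.17.1. Counting was tested on planted peaks. No test was run, since there is 1 group, and the Wilson intervals are a description only. Members, gene lists and words were chosen with earlier results of these data known. The named genes are the members, their neighbours, and listed genes with a main-list peak. Others were named after their values were seen. Alternatives were other lists, windows, overlaps and thresholds.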

Additional observations from a re-analysis of the deposited data

How the results depend on the processing

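The count of superoxide dismutase genes with a peak was 0 under the conservative list and the list of either replicate alone. It was 0 too with 5 other windows and overlaps, and with only peaks at or above the median signal. Of these settings on the main list, only the window with 5000 bp upstream could have raised it. The rest narrow a count already at 0. It was 0 between the replicates at an IDR of at most 0.05, and it was 1, sod-1, in the pooled list at that limit. The count with a start window summit was 0 in the thresholded lists and windows tried. This followed from the counts above, since the start window lies inside the region counted there. The count with a ranked candidate was 3 or 4, also with the start of each transcript. For the 30 antioxidant genes the count of 3 became 0 in the conservative list, 1 with either replicate left out, and 2 to 4 with other windows and overlaps. Thresholds added after the data were seen gave 0 with peaks at or above the median signal, 5 in the pooled list at an IDR of at most 0.05 and 1 between the replicates. The cause was not tested. Unknown depth limits what a missing peak shows: it was not detectable by these lists, which is not absence of binding.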

Other observations

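The GATA word TGATAAG was in 9.19% of all promoters of 300 bases. It was in none of the 5 superoxide dismutase promoters. In the wider start window, where 38.9% of genes held it, sod-5 alone of the 5 did, at -1753 and -873, and no pooled candidate had its summit there. In the same window sod-3 held 2 matches of TGTTTAC, at -377 and -114, 2 of TGTTTGC, 1 of TATTTAC and 3 of TATTTGC. At least 1 forkhead word was in the start window of 81.8% of all genes.

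trx-4, of the thioredoxin family, and ctl-2, a catalase, came next to the threshold among the antioxidant genes, with a −log10 IDR of 1.93 and 1.58 in the pooled list and signal values of 72.5 and 72.6. They were picked out after their values were seen. Besides ctl-1, the genes gpx-8, trx-1, trx-2, trx-5 and trxr-1 had no pooled candidate.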
